A study of Mus musculus with 6 samples.

Results

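The livers of control mice and of mice lacking the nuclear receptors FXR and SHP in hepatocytes were compared for 7 genes that bind or move zinc and manganese. The genes were picked by symbol as a family of known function, with earlier results of these data known. They are the metallothioneins Mt1 and Mt2, the exporters Slc30a1 (ZnT1) and Slc30a10 (ZnT10), and the importers Slc39a4 (ZIP4), Slc39a8 (ZIP8) and Slc39a14 (ZIP14). All 7 were found, 1 row each, among the 48699 genes of the deposited table, and all 7 were expressed above the minimum needed for a test. Between the groups, Mt1, Mt2 and Slc39a14 were higher in each of the 3 knockout livers than in any control, and Slc39a4 was lower in each. Of all 11810 tested genes, 11.3% were higher without overlap and 11.6% lower. Slc30a1, Slc39a8 and Slc30a10 overlapped between the groups. None of the 7 passed the test over all genes with all 6 libraries (limma's adjusted p under 0.05), which 0.313% of genes passed, 0.169% higher and 0.144% lower. The samples are bulk liver, in which fewer cells of a type and less RNA per cell cannot be told apart.

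Metallothioneins are small, cysteine-rich cytosolic proteins that bind zinc and copper, and the liver makes much of the body's supply. Their genes are switched on by the zinc-sensing factor MTF1 through metal response elements, and also by glucocorticoids and by interleukin 6 acting through STAT3. The SLC30 proteins carry zinc, or manganese in the case of SLC30A10, out of the cytosol. The SLC39 proteins carry these metals into it. In the liver, SLC39A14 takes up manganese, zinc and iron not bound to transferrin, SLC39A8 reclaims manganese from bile, and SLC30A10 exports manganese into bile.

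Messenger RNA was sequenced from the livers of adult male C57BL/6 mice, 10 to 12 weeks old, fasted for 8 to 10 hours overnight. The 3 control mice carried floxed alleles of both genes (Fxrfl/fl Shpfl/fl). The 3 double knockout mice were hepatocyte-specific Fxr-/- Shp-/-. The Cre line was not given in the sources used here, and neither group received a treatment. The deposited column names carry the word chow for both groups. Expression is given in FPKM, the number of fragments divided by transcript length and by the mapped fragments of the library, a scale on which levels can be compared between genes.

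The 6 libraries were close in depth, with 13.2e6 to 14.1e6 fragments each, read from the steps of their low values. Nr0b2, which encodes SHP, measured 14.7 to 18.7 FPKM among controls and 0.0734 to 0.293 FPKM among knockouts (log2 fold change -3.91, limma's adjusted p = 0.000277). Nr1h4, which encodes FXR, measured 59.8 to 71.8 FPKM and 15.5 to 22.0 FPKM. Hepatocyte markers were abundant in each library, with 8 of 8 detected and a summed level of 61260 to 73989 FPKM among controls and 34681 to 55434 FPKM among knockouts. Alb made up most of that sum, at 37008, 43645 and 42011 FPKM among controls and 23233, 17009 and 34609 FPKM among knockouts. It was the only one of the 8 markers whose groups did not overlap. A negative log2 fold change was found for 7 of the 8, and 0 passed limma's threshold. Of all tested genes 49.2% had a positive log2 fold change. Control replicate 3 stood apart. Its log2 values correlated at 0.952 and 0.955 with the other controls, which correlated at 0.983 with each other, across genes, which are not independent replicates. Of 16 immediate-early genes, 14 were highest in it. For the 7 genes, and for calls within the gene lists, values without that library are given where the call or direction differs or the value moves by over 1.5 times.

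The sequences upstream of the metallothionein genes are shown because these genes had the highest levels of the 7 and followed each other in every library. Both lie on the plus strand of chromosome 8, Mt1 (ENSMUSG00000031765.8) at 94179082 to 94180327 and Mt2 (ENSMUSG00000031762.7) at 94172664 to 94173568 (GRCm38, GENCODE M21). The 250 bases before the RefSeq start site (GRCm38.p6) are chr8:94178839-94179088 for Mt1 and chr8:94172368-94172617 for Mt2, both on the plus strand. Runs of 7 capitals mark the core of the metal response element (TGCACNC or TGCGCNC, either strand). The run of 13 capitals marks a match to the consensus glucocorticoid response element, a palindrome searched on both strands.
Mt1: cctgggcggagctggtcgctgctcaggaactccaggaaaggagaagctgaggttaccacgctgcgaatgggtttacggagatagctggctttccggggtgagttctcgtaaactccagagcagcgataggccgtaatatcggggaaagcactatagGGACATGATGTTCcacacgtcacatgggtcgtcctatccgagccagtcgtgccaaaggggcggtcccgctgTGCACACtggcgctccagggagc
Mt2: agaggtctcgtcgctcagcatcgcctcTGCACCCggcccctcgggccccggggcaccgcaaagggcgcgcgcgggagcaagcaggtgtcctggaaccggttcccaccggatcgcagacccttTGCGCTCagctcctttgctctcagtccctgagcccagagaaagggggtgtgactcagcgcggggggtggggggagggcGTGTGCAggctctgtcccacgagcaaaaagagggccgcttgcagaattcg
The Mt2 window held 3 metal response element cores and the Mt1 window 1, counted in bases before the start at -23 to -17. Of 32851 RefSeq windows of 250 bases, 21.4% held at least 1 such core and 1.26% at least 3. The glucocorticoid element occurred once, in Mt1 at -94 to -82, and in 0.387% of all windows. The STAT motif TTCNNNGAA was in neither window and in 7.02% of all. Annotated starts differ: the other Mt1 transcripts of GENCODE begin 122 and 152 bases after the RefSeq start, and those of Mt2 46 and 242 bases after it, so these windows do not reach the bases just before the later starts. Of the other genes, Slc30a10 had 3 core matches, 2 of them overlapping on opposite strands, Slc30a1 had 1, and the 2 windows of Slc39a8 had 0 and 1. Windows were matched for 5 of the 7 genes. A match of letters is a description and does not show that a factor binds there.

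Metallothionein transcripts were the most abundant of the 7 genes and were higher in the knockouts. Mt1 measured 371, 900 and 1807 FPKM in control replicates 1, 2 and 3, and 3523, 1929 and 2539 FPKM among knockouts. Mt2 measured 149, 516 and 1142 FPKM among controls and 2413, 1195 and 1408 FPKM among knockouts. The groups did not overlap for either gene, but they nearly touched: the lowest knockout was 1.07 times the highest control for Mt1 and 1.05 times for Mt2. The 6 libraries ranked in the same order for both genes, with control replicate 1 lowest and double knockout replicate 1 highest. Together the pair made up 0.0740%, 0.179% and 0.350% of all FPKM among controls, and 0.863%, 0.512% and 0.566% in the knockouts.

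**Figure D1:**
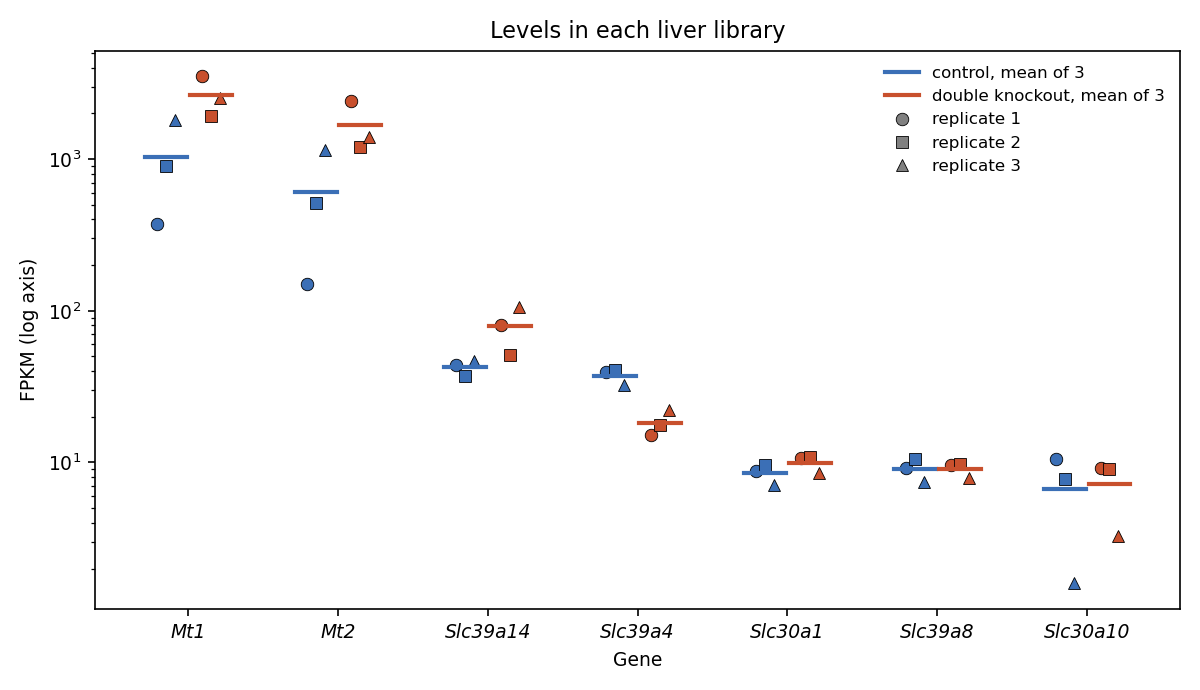
FPKM of each gene on a log axis, by library; circles, squares and triangles are replicates 1, 2 and 3, blue is control, red is double knockout, and bars are means of 3. The metallothioneins spread widely among the controls, Slc39a4 is lower and Slc39a14 higher in every knockout, and Slc30a10 is lowest in control replicate 3 at 1.59 FPKM.

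The mean of Mt1 was 2.60-fold higher in the knockouts, 1026 ± 727 against 2664 ± 804 FPKM (SD, n = 3 per group), and that of Mt2 2.78-fold, 602 ± 502 against 1672 ± 651 FPKM (SD, n = 3 per group). On the log2(FPKM + 1) scale the difference, knockout minus control, was 1.61 (SE 0.55) for Mt1 and 1.84 (SE 0.68) for Mt2. Neither passed limma's threshold of 0.05 over 11810 tested genes (limma's adjusted p = 0.255 and 0.290). As a fold, the spread was wider within the controls, where Mt1 ranged 4.88-fold and Mt2 7.65-fold, against 1.83-fold and 2.02-fold in the knockouts. In FPKM the SD of both genes was larger in the knockouts. Without control replicate 3 the means differed 4.19-fold and 5.03-fold (log2 fold change 2.16 and 2.52, limma's adjusted p = 0.0619 and 0.0718). Without control replicate 1, the lowest library, the log2 fold changes were 1.02 and 1.05. Over the 14 alternative settings limma's adjusted p ranged from 0.0430 to 0.549 for Mt1 and from 0.0545 to 0.560 for Mt2. Giving libraries estimated weights put Mt1 past the threshold (log2 fold change 1.98, limma's adjusted p = 0.0430), where 4.77% of genes passed (2.76% higher, 2.01% lower), but not Mt2 (2.27, 0.0545).

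Within a library, Mt1 exceeded Mt2 in all 6. The ratio of Mt1 to Mt2 was 2.48, 1.74 and 1.58 in the controls and 1.46, 1.61 and 1.80 in the knockouts, so it overlapped between the groups. It was highest in control replicate 1, where both genes were lowest. The 2 genes are close paralogs, and how reads that match both were divided was not given in the sources used here. Mt3, the brain metallothionein, was at 0 in 5 libraries and at 0.228 FPKM in double knockout replicate 3. Mt4, which is made in stratified epithelia, was listed at 0 in all 6. Neither had enough signal for a test.

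Of the importers, Slc39a14 (ENSMUSG00000022094.15, chromosome 14, 70303469 to 70351425, minus strand) was higher in the knockouts. It measured 43.9, 37.2 and 46.5 FPKM among controls and 80.8, 50.9 and 106 FPKM among knockouts. The controls were tight and the knockouts spread, with double knockout replicate 2 only 1.09 times the highest control. The mean was 1.86-fold higher, 42.5 ± 4.83 against 79.1 ± 27.4 FPKM (SD, n = 3 per group; log2 fold change 0.82, SE 0.26, limma's adjusted p = 0.238). The order among the knockouts differed from that of the metallothioneins, since Slc39a14 was highest in double knockout replicate 3.

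Slc39a4 (ENSMUSG00000063354.6, chromosome 15, 76612383 to 76617384, minus strand) was lower in the knockouts, with the widest gap between the groups of the 7. This zinc importer is best known from the small intestine, and its loss in people causes acrodermatitis enteropathica. It measured 39.5, 40.6 and 32.3 FPKM among controls and 15.3, 17.6 and 22.1 FPKM among knockouts. The lowest control was 1.46 times the highest knockout. The mean was 2.04-fold lower, 37.4 ± 4.53 against 18.3 ± 3.45 FPKM (SD, n = 3 per group; log2 fold change -1.00, SE 0.18). With all 6 libraries the gene missed the threshold (limma's adjusted p = 0.0860). It passed without control replicate 3 (log2 fold change -1.10, limma's adjusted p = 0.0378), where 2.05% of genes passed (1.31% higher, 0.746% lower), and with library weights (-1.14, 0.0123). Limma's adjusted p was between 0.0123 and 0.325 over the 14 alternative settings. Of 5 markers of intestinal epithelium, Sis, Lct and Cdx2 were listed at 0 in all 6 libraries and Vil1 was at most 0.263 FPKM. Fabp2 alone was abundant, at 87.1 to 144 FPKM among controls and 30.5 to 55.4 FPKM among knockouts.

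The ratio of Slc39a14 to Slc39a4 within a library does not depend on how libraries are scaled. It was 1.11, 0.916 and 1.44 in the controls and 5.30, 2.89 and 4.79 in the knockouts. The importers were thus at similar levels in the controls, within their spread, while Slc39a14 was at least 2.89 times Slc39a4 in every knockout. This ratio was formed after the values were seen and was not tested.

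Slc39a8 (ENSMUSG00000053897.15, chromosome 3, 135825279 to 135888572, plus strand) was at the same level in both groups within its spread. It measured 9.26, 10.6 and 7.47 FPKM among controls and 9.57, 9.77 and 7.85 FPKM among knockouts. Replicate 3 was the lowest library of either group. The log2 fold change was 0.00, with a 95% interval from -0.40 to 0.40 (limma's adjusted p = 0.999). Its sign turned without control replicate 3 (-0.12) and with library weights (-0.10). It also turned without double knockout replicate 1 (-0.037) and without double knockout replicate 2 (-0.050).

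Of the exporters, Slc30a1 (ENSMUSG00000037434.7, chromosome 1, 191906767 to 191913247, plus strand), the zinc exporter of the plasma membrane and a known MTF1 target, measured 8.77, 9.65 and 7.15 FPKM among controls and 10.7, 10.8 and 8.48 FPKM among knockouts. The groups overlapped through double knockout replicate 3, which was below both control replicates 1 and 2. The log2 fold change was 0.21, with a 95% interval from -0.18 to 0.60 (limma's adjusted p = 0.582). Without control replicate 3 it was 0.10 (limma's adjusted p = 0.711). The interval of Mt1, 0.34 to 2.89, overlapped that of Slc30a1, and the difference between these genes was not tested.

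Slc30a10 (ENSMUSG00000026614.6, chromosome 1, 185454848 to 185468762, plus strand), the manganese exporter, varied most within the groups of the 5 transporters. It measured 10.6, 7.83 and 1.59 FPKM among controls and 9.22, 9.10 and 3.28 FPKM among knockouts. Control replicate 3 and double knockout replicate 3 were low, and the other 4 libraries lay between 7.83 and 10.6 FPKM. By its length and the worth of a fragment, the gene rested on about 128 and 268 fragments in those low libraries and 646 to 817 in the others. The log2 fold change was 0.24, with a 95% interval from -1.13 to 1.62 (limma's adjusted p = 0.873). Its sign turned without control replicate 3 (-0.41, limma's adjusted p = 0.554) and with library weights (-0.14). The same libraries were the highest in immediate-early genes: the summed level of all 16 was 870 FPKM in control replicate 3, 207 FPKM in double knockout replicate 3 and 63.7 to 84.1 FPKM in the other 4. Jun, a member of that list, measured 125 and 31.5 FPKM there and 3.90 to 8.94 FPKM elsewhere. Whether this bears on Slc30a10 was not tested.

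Read together, 4 of the 7 genes had groups that did not overlap, 3 higher and 1 lower, where 22.9% of the tested genes did (11.3% higher, 11.6% lower). The same 4 had an unadjusted limma p under 0.05, as did 14.9% of the tested genes (6.97% higher, 7.98% lower). None of the 7 passed the adjusted threshold, which 0.313% of the tested genes passed. Among all genes 20 passed as higher and 17 as lower. With FPKM rescaled to equal sums in each library these became 55 and 20, and the median log2 fold change of all genes moved from -0.01 to 0.16. On that scale Mt1 was at 1.84, Mt2 at 2.06, Slc39a14 at 1.04, Slc30a10 at 0.42, Slc30a1 at 0.41, Slc39a8 at 0.20 and Slc39a4 at -0.79, so none of the 7 changed sign. The 7 were chosen with earlier results of these data known, so these shares describe them and no test of the group was made. With 3 mice against 3, an exact permutation test of a single gene cannot give a p below 0.1.

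**Figure D2:**
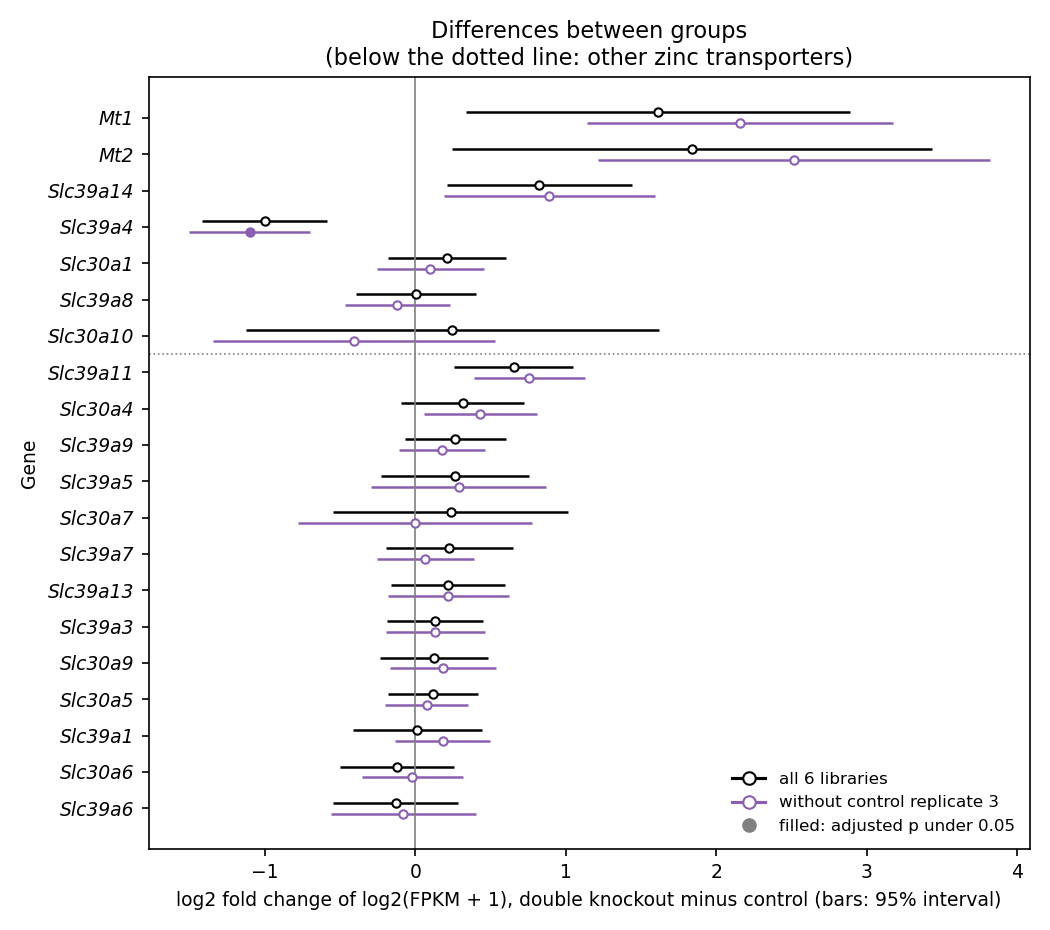
Log2 fold change of log2(FPKM + 1), double knockout minus control, with 95% intervals, for the 7 genes and, below the dotted line, the other tested members of the zinc transporter families; black is all 6 libraries, purple leaves out control replicate 3, and filled points have an adjusted p under 0.05. Slc39a4 without control replicate 3 (-1.10) is the only filled point, and the intervals of Mt1, Mt2, Slc39a14, Slc39a4 and Slc39a11 lie to one side of 0 in both fits.

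The authors' deposited table, which holds the authors' own test, called the same 4 genes and not the other 3, where 4.58% of the genes it tested were called (2.85% higher, 1.73% lower). In the authors' deposited table Mt1 was at 1026 and 2664 FPKM (q = 0.00121), Mt2 at 602 and 1672 FPKM (q = 0.00121), Slc39a14 at 42.5 and 79.1 FPKM (q = 0.0161) and Slc39a4 at 37.4 and 18.3 FPKM (q = 0.00121). The authors' deposited table gave q = 0.702 for Slc30a1, 0.916 for Slc30a10 and 0.995 for Slc39a8. It was made from the same 6 libraries, so it is no independent evidence.

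In level, Mt1 and Mt2 lay above the transporters in every library. In the controls Slc39a14 and Slc39a4 came next and did not differ from each other beyond their spread. Slc30a1 and Slc39a8 followed at 7.15 to 10.6 FPKM, and Slc30a10 overlapped both outside its low libraries.

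The rest of the zinc and manganese genes gave no call with all 6 libraries. Of 28 further genes of the metallothionein, SLC30, SLC39 and manganese lists, 27 were found, 19 were tested, 13 had a positive and 6 a negative log2 fold change, and 0 passed limma's threshold; 1 had an unadjusted limma p under 0.05. Their median log2 fold change was 0.12, against -0.01 for all tested genes. Of all tested genes 49.2% were positive and 14.9% had an unadjusted limma p under 0.05. The 1 further gene with such a p was Slc39a11 (ZIP11), an importer of the Golgi and nucleus. It measured 12.6, 10.7 and 14.7 FPKM among controls and 17.8, 20.3 and 23.2 FPKM among knockouts (log2 fold change 0.65, SE 0.17, limma's adjusted p = 0.182), with no overlap. Library weights put Slc39a11 past the threshold (0.73, limma's adjusted p = 0.0372), where 4.77% of all genes passed. Over all alternatives that p of Slc39a11 ranged up to 0.504.

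Of the other SLC39 importers, Slc39a1, a plasma membrane importer, stood at 35.3 ± 7.95 and 35.2 ± 2.48 FPKM (SD, n = 3 per group) and was highest in control replicate 3. Slc39a7, which releases zinc from the endoplasmic reticulum, stood at 32.7 ± 6.15 and 38.0 ± 3.75 FPKM (SD, n = 3 per group). Slc39a9 was higher in each knockout than in any control, at 8.84 to 11.3 against 12.1 to 12.8 FPKM (limma's adjusted p = 0.423). The same held for Slc39a3, at 1.88 to 1.94 against 2.15 to 2.28 FPKM (limma's adjusted p = 0.683). Slc39a13, Slc39a5 and Slc39a6 lay below 6 FPKM in each library with overlapping groups. Slc39a2, Slc39a10 and Slc39a12 were below the minimum for a test.

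Of the other SLC30 exporters, Slc30a9 stood at 21.5 ± 1.68 and 23.7 ± 3.17 FPKM (SD, n = 3 per group). Slc30a5, which loads zinc into the secretory pathway, stood at 11.8 ± 0.671 and 12.9 ± 0.409 FPKM (SD, n = 3 per group) without overlap (limma's adjusted p = 0.695). Its partner Slc30a6 stood at 4.87 to 6.31 and 4.22 to 5.30 FPKM, and Slc30a7 and Slc30a4 lay at 1.81 to 5.03 FPKM in all 6 libraries. The islet exporter Slc30a8, Slc30a2 and Slc30a3 were below the minimum for a test.

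Of the genes that control metallothionein transcription, none of 10 passed limma's threshold. Here 2 genes, Stat3 and Nr3c1, were higher and 1, Usf1, was lower at an unadjusted limma p under 0.05. Of all tested genes 6.97% were higher and 7.98% lower at that p. Mtf1, the zinc sensor, measured 4.52, 4.54 and 4.65 FPKM among controls and 4.92, 3.54 and 4.96 FPKM among knockouts (limma's adjusted p = 0.936). Stat3 measured 19.8, 16.6 and 22.7 FPKM among controls and 34.3, 25.1 and 38.0 FPKM among knockouts, with no overlap (log2 fold change 0.68, SE 0.20, limma's adjusted p = 0.202). Nr3c1, the glucocorticoid receptor, measured 9.88, 7.55 and 9.97 FPKM among controls and 12.4, 13.1 and 19.0 FPKM among knockouts (log2 fold change 0.63, SE 0.20, limma's adjusted p = 0.238). Usf1, an E-box factor, measured 22.2, 21.1 and 24.3 FPKM among controls and 15.4, 17.1 and 15.3 FPKM among knockouts (log2 fold change -0.48, SE 0.13, limma's adjusted p = 0.200). Neither overlapped between the groups. Nfe2l2, which encodes NRF2, stood at 23.6 ± 1.73 and 29.2 ± 2.45 FPKM, and Usf2 at 27.7 ± 2.96 and 24.0 ± 1.10 FPKM (SD, n = 3 per group, limma's adjusted p = 0.365 and 0.535). Nfe2l2 and Usf2 did not overlap either. In all, 5 of the 10 genes were higher without overlap and 2 lower, where 11.3% and 11.6% of all tested genes were.

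Genes that respond to the same inducers were not uniform. Of 13 glucocorticoid-responsive genes, 9 had a positive log2 fold change, with a median of 0.24, and 1 passed the threshold: Sult1e1, the oestrogen sulfotransferase, at 0.136 to 0.640 FPKM among controls and 17.0 to 71.3 FPKM among knockouts (limma's adjusted p = 0.0166). Its call was lost without control replicate 1 (0.0694), control replicate 2 (0.125) or double knockout replicate 2 (0.0840), and with no filter on low values (0.0654). Without control replicate 3, 2 genes of the list passed, Sult1e1 and Igfbp1, an insulin-like growth factor binding protein. That fit called 2.05% of all genes, against 0.313% with all 6 libraries. Igfbp1 measured 34.2, 51.8 and 528 FPKM among controls and 482, 329 and 696 FPKM among knockouts. Its log2 fold change was 2.27 with all libraries (limma's adjusted p = 0.320), 3.48 without control replicate 3 (0.0120) and 3.17 with library weights (0.0205), and that p reached 0.617 over the alternatives. At an unadjusted limma p under 0.05, 2 genes of the list were higher, Sult1e1 and Igfbp1, and 1 was lower, Tdo2. Of all tested genes 6.97% and 7.98% were, and 49.2% had a positive log2 fold change. Tdo2 measured 1311, 1281 and 1084 FPKM among controls and 739, 599 and 672 FPKM among knockouts, with no overlap (log2 fold change -0.87, SE 0.18, limma's adjusted p = 0.132). Of 18 interleukin 6 and acute phase genes, 11 were positive (median 0.22), 0 passed limma's threshold, and 10 were highest in control replicate 3. At an unadjusted limma p under 0.05, 2 were higher, Orm2 and Itih3, and 0 lower. Orm2 measured 14.4, 16.8 and 113 FPKM among controls and 73.6, 1099 and 229 FPKM among knockouts, with overlap (limma's adjusted p = 0.267). Itih3 measured 224, 188 and 314 FPKM among controls and 358, 479 and 406 FPKM among knockouts, with no overlap (limma's adjusted p = 0.201). The summed level of the 18 genes was 15262, 20519 and 43325 FPKM among controls and 15894, 29729 and 27691 FPKM among knockouts. Members of this list differed. Saa1, a serum amyloid, measured 125, 130 and 10483 FPKM among controls and 621, 5462 and 5050 FPKM among knockouts, and Hamp, which encodes hepcidin, 5311, 8481 and 643 FPKM and 3707, 2419 and 915 FPKM. Il1rn, the interleukin 1 receptor antagonist, measured 0.923, 1.00 and 4.86 FPKM among controls and 3.11, 2.44 and 3.09 FPKM among knockouts. It was the 1 gene of the list past the threshold without control replicate 3 (log2 fold change 0.98, limma's adjusted p = 0.0391), against 0.45 and 0.631 with all libraries and a p of up to 0.895 over the alternatives.

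**Figure D3:**
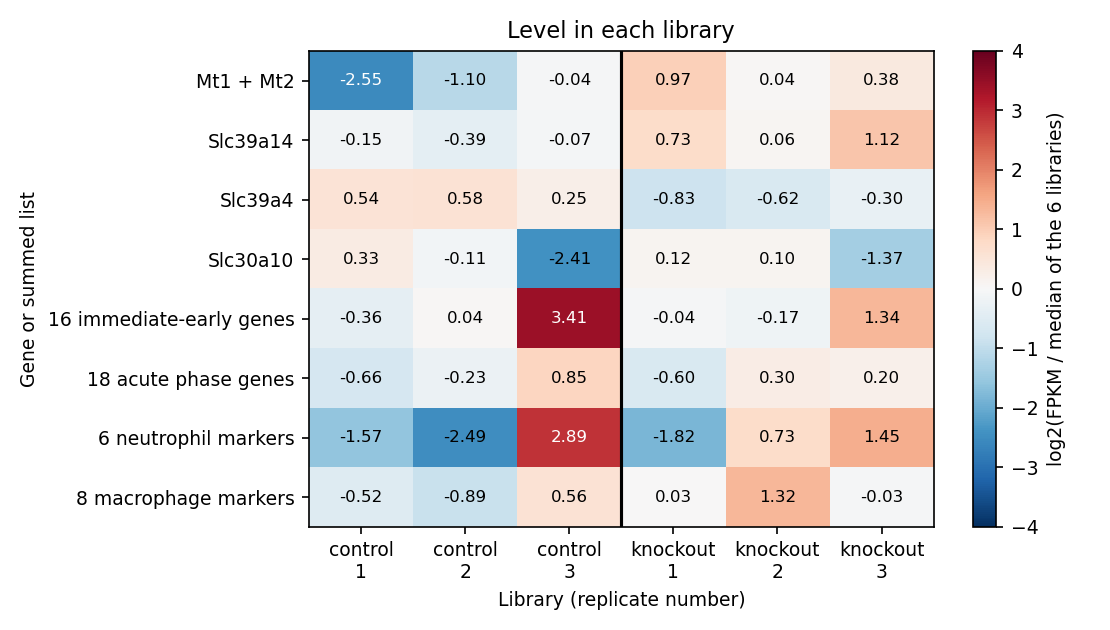
Log2 of each level over its median across the 6 libraries, one column per library, for Mt1 plus Mt2, 3 transporters and the summed FPKM of 4 gene lists. Immediate-early genes (3.41) and neutrophil markers (2.89) peak in control replicate 3, where Slc30a10 is lowest (-2.41), while the metallothioneins peak in double knockout replicate 1 (0.97).

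Markers of other cells also differed between libraries. The 8 macrophage markers were all detected and summed to 51.6 to 142 FPKM among controls and 93.8 to 239 FPKM among knockouts, highest in double knockout replicate 2. All 8 had a positive log2 fold change (median 0.78), as did 49.2% of all tested genes. Each of the 8 overlapped between the groups, and 0 passed limma's threshold. The 6 neutrophil markers summed to 2.34, 1.24 and 51.8 FPKM among controls and 1.97, 11.6 and 19.0 FPKM among knockouts, and Ly6g was at 0 in 5 libraries. The endothelial markers summed to 54.7 to 70.4 and 35.9 to 79.3 FPKM, the stellate cell markers to 63.9 to 115 and 61.5 to 142 FPKM, and the cholangiocyte markers to 33.8 to 44.2 and 59.1 to 64.0 FPKM. Of these, the cholangiocyte marker Spp1 passed the threshold without control replicate 3 (limma's adjusted p = 0.0370, against 0.146 with all libraries). In that fit 2.05% of all genes passed. Spp1 made up most of the cholangiocyte sum, at 31.1, 34.3 and 42.6 FPKM among controls and 55.2, 59.5 and 60.9 FPKM among knockouts. The other cholangiocyte markers were at most 1.54 FPKM. Epcam was higher in each knockout than in any control, while Krt7, Krt19, Sox9 and Cftr overlapped between the groups. The T and B cell markers summed to at most 1.62 FPKM. Of 6 pancreatic acinar markers 4 were at 0 in all libraries. The part of these cells in the values of the 7 genes was not tested.

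The genes most like each of the 7 across the 6 libraries were sought by Pearson's r of log2(FPKM + 1), among genes that averaged 5 FPKM or more. The points share the libraries and their scaling, and with 6 of them many genes reach a high r, so the values are a description. Mt1 and Mt2 were most like each other (r = 0.996). Next came Gulo, the oxidase that makes vitamin C (0.978 with Mt1), and Ostm1, a lysosomal membrane protein (0.980 with Mt1). Gulo measured 166, 196 and 248 FPKM among controls and 298, 240 and 246 FPKM among knockouts, a far smaller span than the metallothioneins.

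Slc39a14 was most like Ptprd, a receptor tyrosine phosphatase (0.984), Lpcat3, which remodels phospholipids (0.983), and Hlf, a clock-output transcription factor (0.980). Slc39a4 was most like Etnppl, an ethanolamine-phosphate lyase (0.996), then Mul1 (0.987) and Narfl (0.982). Etnppl measured 106, 93.8 and 58.0 FPKM among controls and 9.30, 11.4 and 24.7 FPKM among knockouts. For Slc30a10 they were Kansl3 (0.995), Phf20l1 (0.993) and Aars, the cytosolic alanyl-tRNA synthetase (0.990). Aars was lowest in the same libraries, at 26.5 FPKM in control replicate 3 and 32.1 FPKM in double knockout replicate 3, against 38.4 to 40.6 FPKM in the other 4. For Slc30a1 they were Chpf2 (0.989), Cyp2d37-ps (0.973) and St3gal1 (0.970), and for Slc39a8 Ctgf (0.985), Cdipt (0.984) and Tssc4 (0.978).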

How the data were processed

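The authors deposited FPKM for 48699 genes in 6 libraries, and a second table giving each gene's FPKM per group with p-value and q-value, per the file headers. Cuffdiff 2.2.1, Picard 1.119, STAR 2.4.2a, Trimmomatic, bcl2fastq 2.17.1.14 and the build GRCm38 (mm10) are listed, without roles, per the submitters' processing notes. Libraries were made with a stranded mRNA kit, per the labels' protocols. The annotation, the use of strand and the handling of reads that match several genes were not given in the sources used here. Each column was matched to a sample by its group word and number. Transcripts of the opposite strand overlap exons of Mt2, Slc30a1 and Slc30a10, all at most 0.709 FPKM.

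FPKM are not counts, so limma 3.58.1 (R 4.3.3, mean-variance trend) was run on log2(FPKM + 1) for the 11810 genes averaging 0.5 FPKM or more, with Benjamini-Hochberg adjustment over all of them at 0.05. The pseudocount understates the change of low genes. Folds given without log2 compare group means of FPKM. Each library was taken as 1 mouse. The p-values set the difference between the groups against the spread of these 6 samples within their groups. For each gene limma moderated that spread toward a trend over all tested genes. The fragment worth was read from genes over 1500 bases with 1 transcript. In 27 rows symbols turned into dates were restored.

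The genes, the 20 lists and the tests were chosen with earlier results of these data known. Named were the 7 genes, other SLC30 and SLC39 genes averaging 0.5 FPKM or more, Mtf1, the deleted genes, per other list the genes past the threshold or else up to 3 of the highest mean, and the 3 genes most like each of the 7 (predicted genes left out). Fabp2, Vil1, Sis, Lct, Cdx2, Ly6g, Igfbp1, Il1rn, Nr3c1, Usf1, Atp7b, Spp1, Tdo2, Alb, Epcam, Krt7, Krt19, Sox9, Cftr, B4galt1, Orm2, Itih3 and untested family members were named after their values were seen. Of 14 alternatives, 13 were planned and 1 (FPKM rescaled to equal sums) was added after seeing the data.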

Additional observations from a re-analysis of the deposited data

How the results depend on the processing

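Mt1, Mt2, Slc39a14, Slc30a1 and Slc39a4 kept their direction under all 14 alternatives. Their log2 fold changes ranged from 1.02 to 2.16, 1.05 to 2.52, 0.59 to 1.11, 0.10 to 0.41 and -1.14 to -0.79. With all libraries weighted equally 0 of the 7 genes passed the threshold, where 0.313% of all tested genes did. Library weights put 2 past it (Mt1 and Slc39a4), and 1 of the further zinc and manganese genes, where 4.77% of all genes passed. When 1 library was left out, 0 to 1 of the 7 passed. That 1 was Slc39a4, without control replicate 3, where 2.05% of all genes passed.

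Over all genes, 20 were higher and 17 lower. These counts were 13 and 15 with a pseudocount of 0.1, 0 and 2 with no filter on low values (limma; 1104 and 1118 at an unadjusted p under 0.05), 326 and 237 with library weights, and 55 and 20 with FPKM rescaled to equal sums. That rescaling moved the median log2 fold change of all genes from -0.01 to 0.16, beside which Slc39a4 was at -0.79 and Mt1 at 1.84. Leaving out 1 library gave 0 to 154 higher and 2 to 88 lower, the upper bounds without control replicate 3 and the lower ones without control replicate 2 (514 and 537 at an unadjusted p under 0.05). The other 4 omissions gave 1 to 3 higher and 2 to 4 lower. The replicate number as a block gave 27 higher and 23 lower and changed no call among the 7 genes. Deviations of same-numbered libraries from their group means correlated at 0.22, -0.08 and 0.30. For control replicates 1 and 3, but not 2, the knockout of the same number was the most alike. These values do not settle whether the numbers pair the mice.

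Fold changes of the 7 genes and 33 others were recomputed under every alternative, and signs turned for 11 of them. With library weights Slc30a10 was at -0.14, Slc39a8 at -0.10 and Jun at 0.90. With rescaling Slc30a6 was at 0.067, Mtf1 at 0.14, Usf2 at 0.021, Jun at 0.036 and Trf at 0.10, and with quantile normalization Trf was at 0.15 and Cp at 0.013. With 1 library left out the ranges were -0.41 to 0.67 for Slc30a10, -0.12 to 0.10 for Slc39a8, -0.00060 to 0.55 for Slc30a7, -0.12 to 0.18 for Slc39a1, -0.10 to 0.094 for Mtf1, -0.96 to 1.38 for Jun and -0.040 to 0.15 for Pcx. The cause was not tested. Depth was not varied. Each of the 7 genes was detected in every library.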

Other observations

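Of 6 enzymes that use manganese, 4 had a positive and 2 a negative log2 fold change, and 0 passed limma's threshold. At an unadjusted limma p under 0.05, 1 was higher (B4galt1) and 2 were lower (Arg1 and Sod2). Of all tested genes 6.97% were higher and 7.98% lower at that p, and 49.2% had a positive log2 fold change. B4galt1 measured 9.67, 9.02 and 11.3 FPKM among controls and 13.9, 13.3 and 11.9 FPKM among knockouts, with no overlap (log2 fold change 0.36, SE 0.15, limma's adjusted p = 0.321). Arg1, the arginase of the urea cycle, measured 1488, 1910 and 1563 FPKM among controls and 760, 615 and 1124 FPKM among knockouts, with no overlap (log2 fold change -1.03, SE 0.26, limma's adjusted p = 0.179). With library weights, where 4.77% of all genes passed, Arg1 passed too (-1.12, limma's adjusted p = 0.0418). Over the alternatives that p of Arg1 ranged from 0.0418 to 0.504. Sod2, the mitochondrial superoxide dismutase, stood at 49.0 ± 1.31 and 37.5 ± 4.88 FPKM (SD, n = 3 per group; limma's adjusted p = 0.295), also with no overlap. Pcx, pyruvate carboxylase, stood at 122 ± 12.3 and 129 ± 17.5 FPKM (SD, n = 3 per group). Trf, the plasma carrier transferrin, which binds manganese as well as iron, stood at 9840 ± 1727 and 9005 ± 1530 FPKM (SD, n = 3 per group).

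Copper, the other metal that metallothioneins bind, was looked at through 12 genes. Of these, 10 had a negative log2 fold change, with a median of -0.21, and 0 passed limma's threshold. All tested genes had a median of -0.01, and 49.2% of them were positive. While 14.9% of all tested genes had an unadjusted limma p under 0.05, 1 of the 12 did, and it was higher. That gene was Atp7b, the copper exporter of hepatocytes, at 3.12, 2.34 and 2.93 FPKM among controls and 4.56, 4.62 and 4.91 FPKM among knockouts, with no overlap (log2 fold change 0.59, SE 0.15, limma's adjusted p = 0.177). With library weights, where 4.77% of all genes passed, Atp7b passed too (0.65, limma's adjusted p = 0.0420). Over the alternatives that p of Atp7b ranged from 0.0420 to 0.501. Sod1, the copper and zinc superoxide dismutase, stood at 2054 ± 281 and 1580 ± 310 FPKM, the copper chaperone Atox1 at 302 ± 98.6 and 201 ± 27.0 FPKM, and ceruloplasmin, Cp, at 448 ± 81.4 and 370 ± 20.3 FPKM (SD, n = 3 per group). Sod1, Atox1 and Cp overlapped between the groups.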
